A study of Homo sapiens with 15 samples.

Results

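The heat shock proteins and their cochaperones were followed through the differentiation of H9 cells to definitive endoderm, the germ layer that forms the lining of gut, liver and pancreas. The members are a list of gene symbols from the families of HSP70, HSP90, small heat shock proteins, J proteins, chaperonins and heat shock factors, with the cochaperones BAG3 and STIP1. The list does not hold every gene of these families, and others, such as CRYAB, HSPA4L, DNAJA4, DNAJB2 and DNAJB5, are read with the other folding genes further on. The members were 37 of the 23346 symbols in the table of gene counts, all 37 were found, and all 37 passed the filter on low counts. Of them, 26 encode proteins of the cytosol and nucleus, 3 of mitochondria and 6 of the endoplasmic reticulum (ER), and 2 encode heat shock transcription factors.

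H9 is an established human embryonic stem cell line. The day 0 group was undifferentiated H9 in E8 medium. The groups of days 1 to 4 were H9 cells in Advanced RPMI 1640 base medium with activin A, which stands in for the embryonic ligand Nodal, and CHIR99021, which blocks GSK3 and so turns on Wnt targets, was present in the opening day only. Bulk polyA RNA was sequenced from 3 libraries per day, numbered 1, 2 and 4. The labels do not state whether a day's 3 libraries were grown as separate cultures, and p-values therefore cover the spread between these samples, which may be technical. The medium changed together with the start of differentiation, so day and medium cannot be told apart in any comparison with day 0.

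Chaperones bind unfolded stretches of other proteins and help them reach or regain their fold. HSP70 proteins work in cycles of ATP binding that J proteins start and nucleotide exchange factors such as HSP110 and BAG proteins reset. HSP90 takes partly folded clients from HSP70, and the ring-shaped chaperonins (TRiC in the cytosol, HSPD1 with its lid HSPE1 in mitochondria) enclose a client. The cytosol, mitochondria and ER each hold their own HSP70, and stress in the cytosol is read out by heat shock factors that bind the heat shock element, while stress in the ER is read out by ATF6 and its relatives at the ER stress element. Pluripotent stem cells are known for high levels of many cytosolic chaperones, TRiC among them.

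Promoter sequences of members that hold these elements are shown because the cytosolic, mitochondrial and ER forms are compared below. Of the members, 35 matched a RefSeq start site window (GRCh38.p14, 250 bases before to 50 after the start), and HSF1 and HSPA14 did not. The heat shock element was searched on both strands as GAANNTTCNNGAA, whose reverse complement is TTCNNGAANNTTC, and the ER stress element as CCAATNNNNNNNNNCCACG. These patterns do not overlap each other in any printed window, though the 2 heat shock matches of HSPD1 overlap. A heat shock element stood in 172 of 35116 windows of all genes (0.49%) and in 6 of the 47 windows of members. These belonged to 6 of the 35 matched members, namely HSPA8, HSP90AA1, HSP90AB1, DNAJA1 and DNAJB6 of the cytosol and HSPD1 of mitochondria, and to 0 of the 6 ER members. An ER stress element stood in 27 of 35116 windows (0.077%) and in 2 of the 6 windows of ER members, those of HSPA5 and HSP90B1. It stood in 0 of the 35 windows of the 25 matched cytosolic members. A match describes letters only and is not a measured binding site. Only exact matches within the windows were counted, so a member without a match may still hold a variant of the element. The sequences below are given 5′ to 3′ on the gene's strand with the matched element in capitals. They lie before the start site of their window, and where an exon of a protein-coding transcript overlaps the window only a site of 30 bases or a stretch without such an exon is shown. HSPD1, HSP90AA1 and HSP90AB1 have other RefSeq starts further upstream, and the HSPD1 site lies 184 to 213 bases after the other start of that gene. The DNAJA1 match lies after its start and is not printed. The last sequence of HSP90B1 holds its element on the opposite strand.
HSPA8 (chr11:123062353-123062386, minus strand, 250 to 217 bases before the start): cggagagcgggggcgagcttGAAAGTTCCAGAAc
HSPA8 (chr11:123062170-123062199, minus strand, 63 to 34 bases before the start): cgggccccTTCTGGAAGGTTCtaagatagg
HSP90AA1 (chr14:102087111-102087140, minus strand, 96 to 67 bases before the start): gagggttcTTCCGGAAGGTTCgggaggctt
HSP90AB1 (chr6:44247693-44247865, plus strand, 250 to 78 bases before the start): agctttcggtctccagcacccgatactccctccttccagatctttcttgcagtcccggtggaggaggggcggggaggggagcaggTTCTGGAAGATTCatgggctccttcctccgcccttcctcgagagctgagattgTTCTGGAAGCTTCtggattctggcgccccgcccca
DNAJB6 (chr7:157336774-157336965, plus strand, 230 to 39 bases before the start): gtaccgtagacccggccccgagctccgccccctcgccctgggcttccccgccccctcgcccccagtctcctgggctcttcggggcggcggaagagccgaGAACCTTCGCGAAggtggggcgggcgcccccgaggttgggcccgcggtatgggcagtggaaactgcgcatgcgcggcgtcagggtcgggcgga
HSPD1 (chr2:197500061-197500090, minus strand, 250 to 221 bases before the start): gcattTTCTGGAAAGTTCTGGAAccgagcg
HSPA5 (chr9:125241344-125241593, minus strand, 250 to 1 bases before the start): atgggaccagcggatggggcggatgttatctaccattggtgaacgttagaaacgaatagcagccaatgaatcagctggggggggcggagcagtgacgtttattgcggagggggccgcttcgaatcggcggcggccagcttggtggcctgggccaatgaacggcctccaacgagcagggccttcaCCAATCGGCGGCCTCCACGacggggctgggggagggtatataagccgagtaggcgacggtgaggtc
HSP90B1 (chr12:103930211-103930240, plus strand, 199 to 170 bases before the start): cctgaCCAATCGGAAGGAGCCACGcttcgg
HSP90B1 (chr12:103930316-103930345, plus strand, 94 to 65 bases before the start): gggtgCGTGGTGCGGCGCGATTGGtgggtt

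Total counts ran from 54723184 to 145857940 per library, and the lowest count of a member in a library was 208, so counting noise was small beside the spread between libraries. Markers followed the labels in sum: undifferentiated cell markers (POU5F1, SOX2, NANOG) summed to 648 to 1015 CPM (counts scaled to TMM-adjusted library size) on day 0 and 35.5 to 190 on day 4, and the 3 streak markers (T, MIXL1, EOMES) to 4.49 to 5.54 on day 0 and 1829 to 1932 on day 1. The 4 endoderm markers (SOX17, FOXA2, CXCR4, CER1) summed to 23.8 to 30.6 CPM on day 0 and 744 to 3606 on day 4. Replicate 1 of days 3 and 4 stood apart, with EOMES at 60.3 and 81.6 CPM against 326 to 452 in the other libraries of those days. Replicate 4 kept more POU5F1, at 215, 199 and 119 CPM on days 2, 3 and 4. In replicates 1 and 2 POU5F1 was at 41.7 and 43.4, 25.2 and 22.5, and 16.8 and 28 CPM on those days. On day 2 SOX2 (4.25 CPM) and NANOG (36.6 CPM) of replicate 4 did not stand above both other libraries. On days 3 and 4 both did, with SOX2 at 11.4 and 14.7 CPM and NANOG at 83.7 and 56.6 in replicate 4. In replicates 1 and 2 of those days SOX2 was at 3.75 to 6.09 CPM and NANOG at 12.4 to 37.9. Mesoderm markers summed to 1.37 to 1.75 CPM on day 0, up to 270 on day 2, up to 284 on day 3 and 40 to 116 on day 4. Most of the day 4 sum was HAND1 (109, 27.2 and 98.1 CPM in replicates 1, 2 and 4). The 4 neural markers summed to 66.8 to 125 on day 0 and 197 to 830 on day 4, nearly all of it OTX2. The 4 blood and endothelium markers summed to at most 3.24, and the 4 trophoblast markers to at most 0.631 with ELF5 at 0 in all libraries. Their part in the results below was not tested, and in bulk RNA fewer cells of a type and less RNA per cell cannot be told apart.

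Most of the chaperone genes that changed in the cytosol and all 3 of mitochondria fell by day 4. Of the 6 in the ER 1 rose (16.7%, near the 18% of all genes) and 0 fell. By edgeR's quasi-likelihood test of all days jointly, 24 of the 37 members (64.9%) changed, against 37.3% of the 17401 genes tested. Levels here are CPM on the same scale, a log2 fold change or difference is the later day minus the earlier, its standard error (SE) is approximate, and a gene is called where its Benjamini-Hochberg adjusted p over all genes is under 0.05. Between day 0 and day 4, 16 members fell (43.2%, against 16.2% of all genes), 3 rose (8.11%, against 18%) and 18 did not pass. The median log2 fold change of the 37 was -0.73 and that of all genes -0.02. The day 4 libraries lay wholly below those of day 0 for 19 members (51.4%, against 19.5% of all genes) and wholly above for 2 (5.41%, against 21.1%). Without replicate 1 of days 3 and 4, 14 fell and 3 rose, against 2890 and 3250 of the 17609 genes tested in that fit. The highest daily mean fell on day 0 for 11 members, on day 1 for 14, on days 2 and 3 for 5 each and on day 4 for 2, and the lowest on day 3 for 13 and on day 4 for 14.

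**Figure D1:**
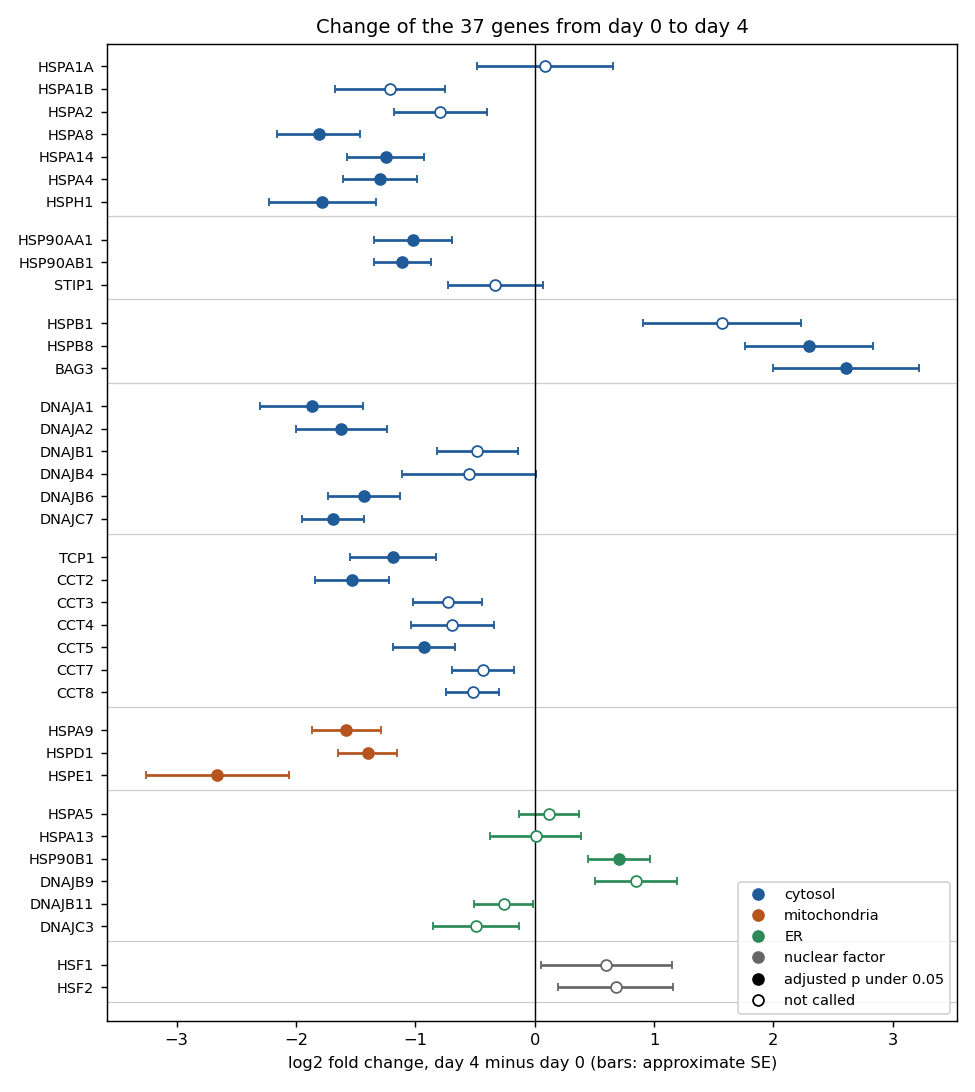
Log2 fold change of each of the 37 members from day 0 to day 4 (x axis; bars are the approximate SE), with rows grouped by family and coloured by compartment, filled where the adjusted p is under 0.05. The 3 mitochondrial genes and most cytosolic genes lie left of 0 (16 filled), and BAG3, HSPB8 and HSP90B1 are the 3 filled points on the right.

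HSPA8, the constitutive HSP70 of the cytosol, was the member with the highest day 0 level per kilobase of transcript (2007 CPM per kb) and fell by day 4. Its level was 4176, 6009 and 4644 CPM in replicates 1, 2 and 4 of day 0 and 1012, 1828 and 1384 CPM on day 4. All day 4 libraries lay below all day 0 libraries. The log2 fold change was -1.81 (SE 0.35, adjusted p = 0.00105), a 3.51-fold lower level. The daily means were 4943 ± 952, 3960 ± 891, 2209 ± 938, 1152 ± 206 and 1408 ± 408 CPM (SD, n = 3) from day 0 to day 4. On day 2 replicate 4, at 1171 CPM, stood near the day 3 level, whereas replicates 1 and 2 stood at 2996 and 2462.

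Of the 7 genes of HSP70 and HSP110, 4 fell between day 0 and day 4 (57.1%, against 16.2% of all genes), 0 rose (against 18%) and 3 did not pass, with a median of -1.25. The exchange factor HSPH1, an HSP110 protein, was at 462, 590 and 358 CPM on day 0 and at 159, 99.6 and 153 on day 4 (log2 difference -1.78, SE 0.45, adjusted p = 0.00689). Its groups did not overlap. The day 2 mean was still 506 ± 317 CPM, where replicate 4 was at 153 CPM and replicates 1 and 2 at 768 and 596. HSPA4, its relative and also an exchange factor, fell from 667 ± 123 to 271 ± 73.7 CPM (-1.30, SE 0.31, adjusted p = 0.00462). HSPA14, an HSP70 that works at the ribosome, fell from 58.1 ± 13.1 to 24.4 ± 8.71 CPM (-1.25, SE 0.32, adjusted p = 0.00795). HSPA4 and HSPA14 showed no overlap between the days either.

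HSPA1B, a stress-inducible HSP70, was at 46.5, 48 and 56.2 CPM on day 0. It reached 64.5, 61 and 45.8 CPM on day 1 and was at 22, 25.7 and 7.15 on day 2. It went on to 5.9, 11.1 and 8.64 CPM on day 3 and stood at 9.62, 24.2 and 31.5 on day 4. The lowest values were those of day 3, and day 4 was widely spread with replicate 1 lowest. The fall from day 1 to day 2 passed (log2 difference -1.64, SE 0.46, adjusted p = 0.0388), whereas day 4 against day 0 did not (-1.21, SE 0.46, adjusted p = 0.0524), although the libraries did not overlap. That difference passed in 8 of 26 alternatives, among them leaving out replicate 4 of day 2 or of day 4. HSPA1A, which encodes nearly the same protein, had a lower mean on each day (4.77 against 19.9 CPM per kb on day 0). It was at 8.46 to 16.6 CPM on day 0, 2.09 to 5.97 on day 3 and 2.53, 13.7 and 21.8 in replicates 1, 2 and 4 of day 4 (0.09, SE 0.57, adjusted p = 0.915 for day 4 against day 0). Reads cannot always be assigned between these near-identical genes, so the split between them is uncertain. HSPA2, the HSP70 best known from testis, changed by the joint test (adjusted p = 0.00822), with a mean of 13.1 ± 3.73 CPM on day 0, 3.05 ± 0.973 on day 3 and 7.58 ± 3.66 on day 4. Without replicate 4 of day 4 it also passed for day 4 against day 0 (-1.22, adjusted p = 0.0412, over all alternatives 0.0412 to 0.448). The HSPA1B call for day 2 was lost without any library of days 1 or 2, without replicate 2 of day 0 without replicate 2 of day 4 or with GC and length trends removed (adjusted p 0.0546 to 0.141).

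Both HSP90 genes of the cytosol fell, and the adaptor did not pass. HSP90AB1, the constitutive form, was at 2980, 4707 and 3455 CPM on day 0 and at 1804, 1550 and 1798 on day 4 (log2 difference -1.11, SE 0.24, adjusted p = 0.00224). No day 4 library reached the lowest day 0 library. HSP90AA1, the inducible form, was at 5479, 4564 and 3529 CPM on day 0, 6497, 5057 and 3080 on day 2 and 1804, 2427 and 2448 on day 4. Its mean was 4878 ± 1715 CPM on day 2 and came to 2007 ± 869 CPM on day 3, with no overlap between days 2 and 3. Day 4 against day 0 passed (-1.02, SE 0.33, adjusted p = 0.0257), but the call was lost without replicate 1 or 2 of day 0, without any day 4 library in turn, without replicate 1 of days 3 and 4 together and with only the days compared (adjusted p 0.0551 to 0.0971). STIP1, which hands clients from HSP70 to HSP90, was measured at 162, 172 and 376 CPM on day 0 and 100, 195 and 268 on day 4 (-0.33, SE 0.40, adjusted p = 0.547). The STIP1 groups overlapped, and leaving out day 0 replicate 4 or day 4 replicate 1 turned its sign.

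**Figure D2:**
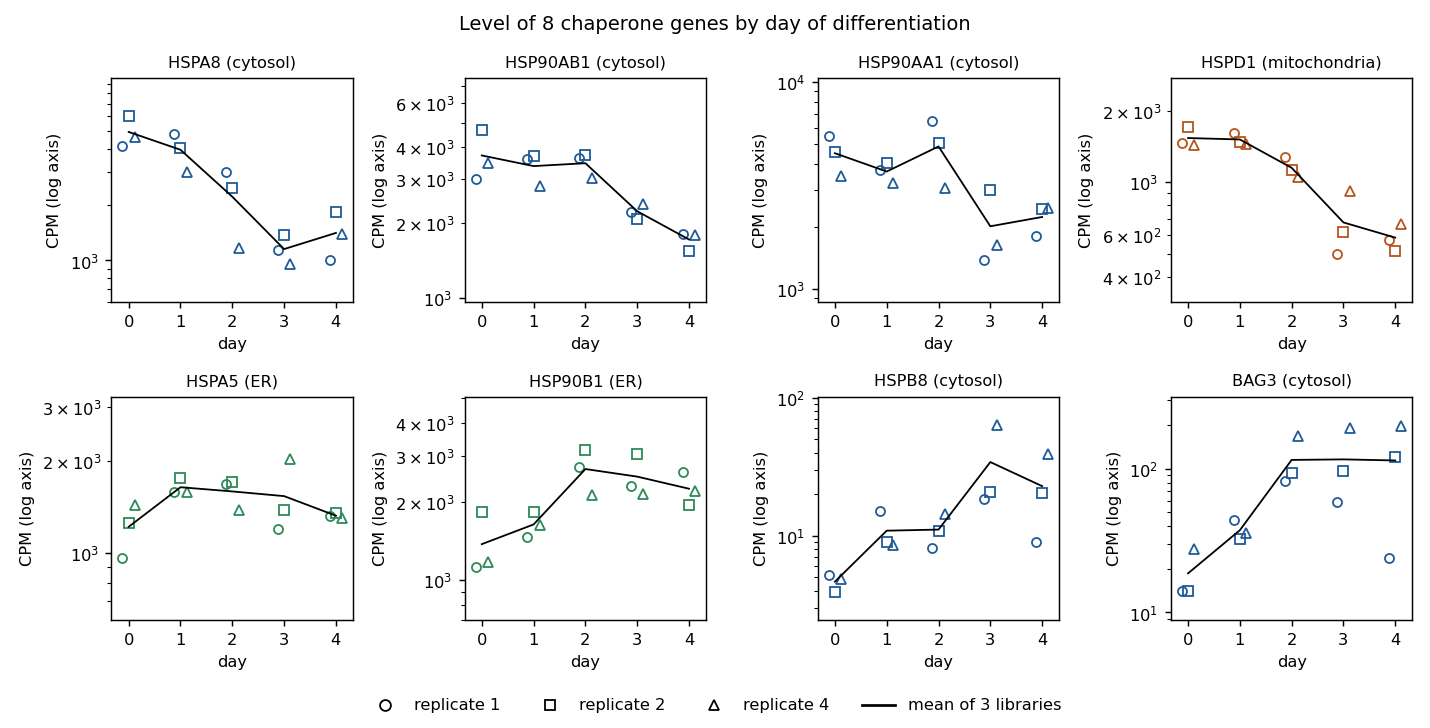
Level in CPM (log axis) of 8 members in each of the 15 libraries by day, with symbols for replicates 1, 2 and 4 and a line through the daily means. HSPA8 goes from a mean of 4943 to 1408 and HSPD1 from 1539 to 584, HSPA5 stays between 1219 and 1641, and BAG3 goes from 18.7 to 114 with day 4 replicate 1 at 23.9.

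Of the 6 cytosolic J proteins among the members, cochaperones that bring clients to HSP70, 4 fell by day 4 (66.7%, against 16.2% of all genes), 0 rose (against 18%) and 2 did not pass, with a median of -1.52. Of 4 further cytosolic J proteins outside the members, DNAJB2 and DNAJB5 rose and DNAJA4 and DNAJC2 fell (named after their values were seen). DNAJA1, a class A partner of HSPA8, was at 765, 714 and 487 CPM on day 0 and 178, 175 and 183 on day 4 (log2 difference -1.87, SE 0.43, adjusted p = 0.00399). The 3 day 4 libraries agreed within 179 ± 4.32 CPM and lay far below day 0. DNAJA2, of the same class, fell from 252 ± 89.7 to 82.2 ± 20.4 CPM (-1.62, SE 0.38, adjusted p = 0.00446). DNAJC7, which also binds HSP90, was at 120, 104 and 84.4 CPM on day 0, 135, 140 and 103 on day 1, 69.6, 67.3 and 47 on day 2 and 28.5, 29.6 and 37.4 on day 4. The groups of days 1, 2 and 3 did not overlap, and the fall from day 1 to day 2 passed (-1.04, SE 0.26, adjusted p = 0.0192), as did that from day 0 to day 4 (-1.69, SE 0.26, adjusted p = 0.000195). The former call was lost without replicate 1 or 2 of day 1 or replicate 2 or 4 of day 2 (adjusted p 0.0697 to 0.0952). DNAJB6, known for keeping aggregation-prone proteins soluble, was at 457, 389 and 375 CPM on day 0, 217, 224 and 184 on day 1 and 142, 122 and 188 on day 4. It was the 1 member called in the opening day (-0.97, SE 0.29, adjusted p = 0.0472), with no overlap between days 0 and 1, and it remained lower by day 4 (-1.43, SE 0.30, adjusted p = 0.00193). The day 1 call lay at the threshold and was lost in 18 of 26 alternative analyses, among them leaving out any library other than replicates 1 and 4 of day 2, while the log2 fold change stayed between -1.01 and -0.67. The other J proteins of the members did not pass: DNAJB1, a stress-inducible partner of HSP70, had means of 111 ± 39.1 and 79.5 ± 21.7 CPM on days 0 and 4, and DNAJB4 had 25.4 ± 12.9 and 17.4 ± 8.75.

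The TRiC chaperonin, which folds actin and tubulin, had 3 of its 7 listed subunit genes lower on day 4 (42.9%, against 16.2% of all genes), 0 higher (against 18%) and 4 not passing, and all 7 estimates were negative (-1.53 to -0.43, median -0.73). CCT2 was at 1251, 823 and 648 CPM on day 0 and 361, 277 and 303 on day 4 (log2 difference -1.53, SE 0.31, adjusted p = 0.00151). TCP1 was at 514, 501 and 335 CPM on day 0 and 256, 152 and 184 on day 4 (-1.19, SE 0.36, adjusted p = 0.0177). CCT5 was at 783, 708 and 831 CPM on day 0 and 321, 392 and 507 on day 4 (-0.93, SE 0.26, adjusted p = 0.0112). In none of these 3 did the day 4 libraries reach those of day 0. The TCP1 call was lost without replicate 1 or 2 of day 0 or replicate 2 or 4 of day 4 (adjusted p 0.0503 to 0.0842), and the CCT5 call in 5 of 26 alternatives (0.0516 to 0.0904), namely without replicate 1 or 2 of day 4, without replicate 1 of days 3 and 4, with only the days compared and with trends of GC content and transcript length removed. CCT3 (-0.73, SE 0.29, adjusted p = 0.062) and CCT8 (-0.52, SE 0.22, adjusted p = 0.0755) also had day 4 libraries wholly below day 0 and changed by the joint test (adjusted p = 0.0325 and 0.0199). CCT4 (adjusted p = 0.138) and CCT7 (adjusted p = 0.224) overlapped. Between days 2 and 3 the libraries of 5 of the 7 genes were lower without overlap (71.4%, against 8.75% of all genes), though none passed.

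Per kilobase of transcript, the scale on which genes can be compared, the listed TRiC subunits lay between 180 (TCP1) and 444 CPM per kb (CCT2) on day 0 and between 78.9 (TCP1) and 275 CPM per kb (CCT7) on day 4. CCT2 was the highest subunit on day 0 and CCT7 on day 4, while the complex holds its subunits in equal number. CCT6A, the remaining subunit of the ring not a member of the list and named here after its values were seen, stood at 301 and 144 CPM per kb on days 0 and 4 (log2 fold change of its CPM -1.06, adjusted p = 0.00245).

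**Figure D3:**
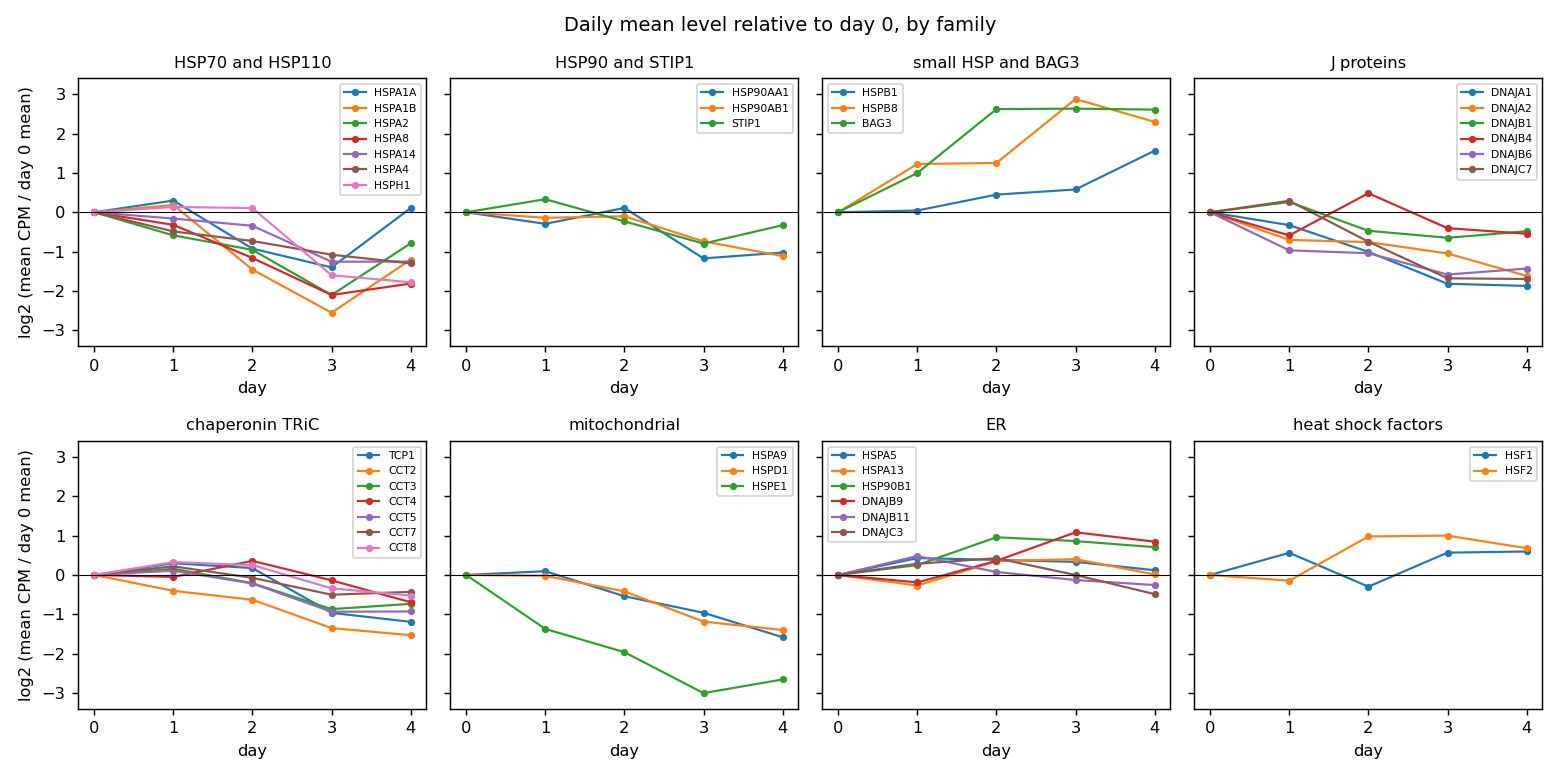
Daily mean level of each member relative to its day 0 mean (y axis, log2 ratio of mean CPM) by day (x axis), in a panel per family. The TRiC genes all lie below 0 on day 4, between -1.53 and -0.43, whereas BAG3 and HSPB8 lie above 2 and HSPE1 below -2.

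BAG3 and the small heat shock protein HSPB8 rose by day 4, and HSPB1, the third of this group, did not pass (66.7% higher, against 18% of all genes, and 0% lower, against 16.2%). The other small heat shock proteins tested, outside the members and named after their values were seen, did not pass either. Their log2 fold changes were -2.61 for CRYAB (adjusted p = 0.0623) and 0.66 for HSPB6 (adjusted p = 0.553). HSPB11, listed by its symbol but not of this family, did not pass (-0.53, adjusted p = 0.352). BAG3, which couples HSP70 to HSPB8 and to autophagy, was at 14.1, 14.2 and 27.8 CPM on day 0, 44.1, 32.3 and 35.5 on day 1, 82, 94 and 168 on day 2 and 23.9, 121 and 197 on day 4. The groups of days 0, 1 and 2 did not overlap, whereas day 4 replicate 1 fell within the day 0 range. The rise to day 4 passed (log2 difference 2.61, SE 0.61, adjusted p = 0.00442) and kept its call under all 26 alternatives, at 1.98 without day 4 replicate 4. HSPB8, the small heat shock protein that BAG3 binds, was at 5.18, 3.91 and 4.89 CPM on day 0, 18.4, 20.8 and 63.3 on day 3 and 9.01, 20.5 and 39.3 on day 4. Every later library lay above every day 0 library (2.30, SE 0.54, adjusted p = 0.00459 for day 4), with a value of 1.69 without day 4 replicate 4. HSPB1, an abundant small heat shock protein in many cells, was measured at 24.1, 5.56 and 18.9 CPM on day 0 and at 13.4, 51.5 and 79 on day 4 (1.57, SE 0.66, adjusted p = 0.0767). Its groups overlapped through day 4 replicate 1, and it passed in 6 of 26 alternatives, among them without that library (2.09, adjusted p = 0.0178) and without day 3 replicate 4 (1.62, adjusted p = 0.0489), with 0.0146 to 0.294 over all alternatives. Replicate 1 of day 4 is the library that also had the low EOMES level, and the part of that in these genes was not tested. Replicate 4 of day 4, the highest of that day for BAG3, HSPB8 and HSPB1, also had the highest POU5F1 level of that day. The part of that was not tested either.

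All 3 mitochondrial members fell by day 4, against 16.2% of all genes, with a median of -1.58. HSPA9 (mortalin), the HSP70 that pulls proteins into the matrix, was at 716, 982 and 806 CPM on day 0, 937, 943 and 795 on day 1 and 321, 240 and 275 on day 4 (log2 difference -1.58, SE 0.29, adjusted p = 0.000853). HSPD1, the chaperonin HSP60 of the matrix, was at 1465, 1718 and 1434 CPM on day 0, 1621, 1477 and 1455 on day 1 and 571, 512 and 669 on day 4 (-1.40, SE 0.25, adjusted p = 0.000723). On day 1 both overlapped with day 0, and their day 4 libraries lay wholly below. HSPE1, the lid of HSPD1, was at 291, 43.1 and 89.6 CPM on day 0 and 17.1, 19.2 and 31 on day 4 (-2.66, SE 0.60, adjusted p = 0.00332). Its day 0 libraries differed widely, with replicate 1 highest, and the log2 fold change was -1.54 without that library, which still passed. Day 0 replicate 1 also had the highest share of counts in ribosomal protein genes, 6.97% against 2.01% and 4.47% in the other day 0 libraries, and the part of that in the HSPE1 value was not tested.

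HSPD1 and HSPE1 are neighbours on chromosome 2 that are read in opposite directions from a shared promoter, with RefSeq start sites 105 bases apart at the nearest (539 for the other HSPD1 start). Their levels did not keep a fixed ratio. The CPM ratio of HSPD1 to HSPE1 was 5.04, 39.9 and 16 in replicates 1, 2 and 4 of day 0 and 33.4, 26.7 and 21.6 on day 4. The spread on day 0 thus covered the day 4 values. HSPE1 is a short transcript with many processed pseudogene copies and a read-through transcript with its neighbour MOB4, so its count is uncertain.

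Of the 6 ER members, 1 rose by day 4 (16.7%, near the 18% of all genes), 0 fell (against 16.2%) and 5 did not pass. Their median was 0.06, and -0.03 without replicate 1 of days 3 and 4. With trends of GC content and transcript length removed, an analysis chosen after seeing the data, the median was 0.33. HSP90B1 kept its call as higher there, DNAJB9 (1.25) and HSPA13 (0.49) passed as higher too, and the others did not pass. Of all genes 3544 of 17401 were called higher in that fit. HSPA5 (BiP), the HSP70 of the ER and the usual marker of ER stress, was at 965, 1252 and 1440 CPM on day 0, 1581, 1761 and 1582 on day 1 and 1318, 1351 and 1306 on day 4. The day 1 libraries lay above all day 0 libraries but the difference did not pass (log2 difference 0.43, SE 0.25, adjusted p = 0.309), and days 0 and 4 overlapped (0.12, SE 0.25, adjusted p = 0.739). It had the narrowest course of the 37, with a 1.35-fold span between its highest and lowest daily mean. HSP90B1 (GRP94), the HSP90 of the ER, was at 1119, 1823 and 1173 CPM on day 0, 2722, 3150 and 2124 on day 2 and 2590, 1938 and 2188 on day 4. All libraries of days 2, 3 and 4 lay above those of day 0. The rise to day 4 passed at the threshold (0.71, SE 0.26, adjusted p = 0.0492, over all alternatives 0.000392 to 0.154). The call was lost in 9 of 26 alternatives, among them leaving out replicate 1 or 4 of day 0, replicate 4 of day 1 or any library of day 4. The joint test of HSP90B1 gave an adjusted p of 0.033.

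DNAJB9 (ERdj4), a J protein that helps to bring misfolded proteins out of the ER, was at 35.5, 26.2 and 13.9 CPM on day 0, 49.9, 48.9 and 61.6 on day 3 and 55.1, 50.1 and 30.6 on day 4. It changed by the joint test (adjusted p = 0.0268), and its highest levels were on day 3, above all libraries of days 0 to 2. Day 4 against day 0 overlapped and did not pass (0.85, SE 0.34, adjusted p = 0.0671). The call was gained in 6 of 26 alternatives, among them without day 0 replicate 1 (1.21, adjusted p = 0.0233) and without day 4 replicate 4 (1.09, adjusted p = 0.0378). DNAJB11, the J protein that works with HSPA5 on nascent chains, had means of 129 ± 17.2 and 108 ± 5.92 CPM on days 0 and 4, and DNAJC3, which also binds HSPA5, had 48.5 ± 11.8 and 34.6 ± 14.1. HSPA13, an HSP70 relative of the ER, had 112 ± 52.3 and 113 ± 47.2 CPM. None of these 3 passed in any comparison or in the joint test of the main fit, though HSPA13 passed for day 4 with GC and length trends removed.

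In the HSP90 and HSP70 pairs chosen here, the mean ratio of the ER form to the cytosolic form was higher on every later day than on day 0. The other cytosolic HSP90, HSP90AA1, was not set against HSP90B1. HSP90B1 of the ER stood at 0.376, 0.387 and 0.34 times the CPM of its cytosolic relative HSP90AB1 in the day 0 libraries and at 1.44, 1.25 and 1.22 times on day 4. Every later library lay above every day 0 library, and the mean ratio was 0.367, 0.491, 0.766, 1.13 and 1.3 from day 0 to day 4. For the HSP70 pair, HSPA5 stood at 0.231, 0.208 and 0.31 times the CPM of HSPA8 on day 0 and at 1.3, 0.739 and 0.944 times on day 4, with a peak of 2.11 in day 3 replicate 4. On the scale per kilobase, HSPA8 stood at 2007 and HSPA5 at 312 CPM per kb on day 0, and at 572 and 339 on day 4. HSP90AB1 stood at 1389 and HSP90B1 at 480 CPM per kb on day 0, and at 642 and 783 on day 4, the ER form then being the higher. HSPD1 of mitochondria stood at 1.52, 1.37 and 0.996 times the CPM of HSPA5 on day 0 and at 0.433, 0.379 and 0.512 times on day 4. These ratios are given as a description and were not tested.

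Summed over the members, the cytosolic genes came to 20882 ± 2248 CPM on day 0 and 9309 ± 854 on day 4, and the mitochondrial genes at 2515 ± 210 and 885 ± 104. The ER genes came to 2906 ± 478 CPM on day 0, 4633 ± 759 on day 2 and 3864 ± 377 on day 4. Their share of the members' summed CPM was 9.46%, 11.7% and 11.9% on day 0 and 31.4%, 25.6% and 25.1% on day 4, with every day 4 library above every day 0 library. All members together took 2.55 ± 0.234% of the deposited counts on day 0 and 1.46 ± 0.0652% on day 4, without TMM scaling. Of the cytosolic members 2 rose (7.69%, against 18% of all genes) and 13 of 26 fell by day 4 (50%, against 16.2%; median -0.98), against 3 of 3 in mitochondria and 0 of 6 in the ER, and the difference between compartments was not tested.

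**Figure D4:**
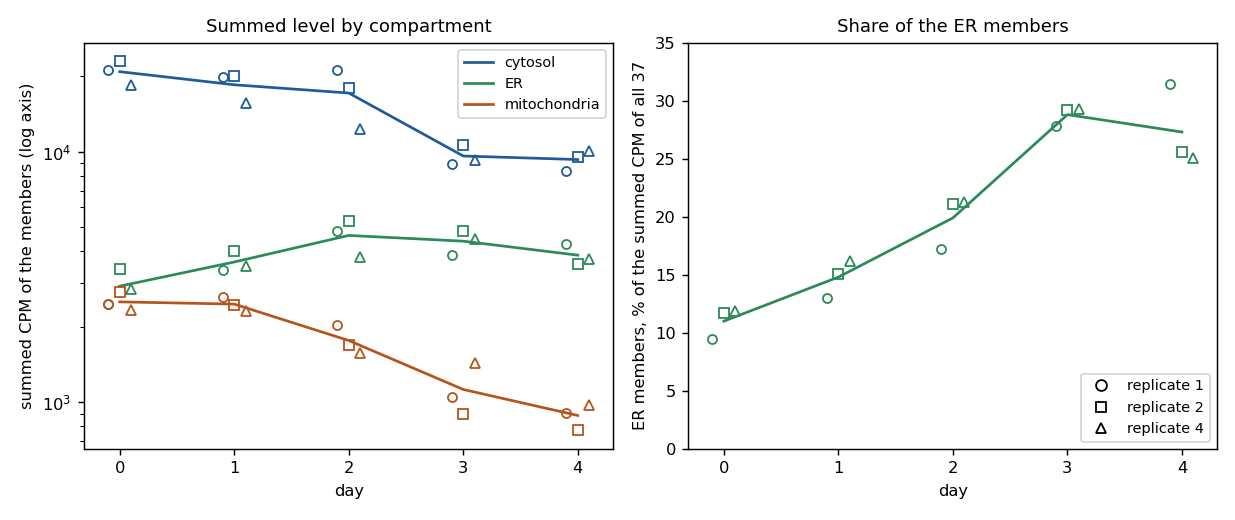
Summed CPM of the cytosolic, ER and mitochondrial members in each library by day (left, log axis, symbols for replicates, lines through daily means) and the share of the ER members in the summed CPM of all 37 (right, percent). The cytosolic sum goes from a mean of 20882 to 9309 CPM while the ER share has a mean of 11% on day 0, 28.8% on day 3 and 27.3% on day 4.

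The 2 heat shock factors did not pass in any comparison. HSF1, which drives the heat shock response, was at 31.9, 22.1 and 74.9 CPM on day 0 and 31.6, 77.7 and 85.8 on day 4 (log2 difference 0.60, SE 0.55, adjusted p = 0.422). HSF2, its developmental relative, was at 39, 34.4 and 16.8 CPM on day 0 and 69.4, 43.9 and 31.2 on day 4 (0.68, SE 0.48, adjusted p = 0.29). In both genes replicate 4 of day 0 stood apart from replicates 1 and 2, in opposite directions. The GC content of the transcripts is 63.9% for HSF1 and 40.9% for HSF2. With trends of GC content and transcript length removed in each library, an analysis chosen after seeing the data, HSF1 on day 0 was at 45.4, 33.6 and 59.5 CPM and HSF2 at 27.3, 28.5 and 19.8, and HSF2 then passed for day 4 (1.04, adjusted p = 0.0195, over all alternatives 0.00272 to 0.592). The same analysis gave 1.25 (adjusted p = 0.00294) for DNAJB9 and 0.49 (adjusted p = 0.0444) for HSPA13. HSPA1B (-1.73, adjusted p = 0.0102), CCT3 (-0.78, adjusted p = 0.01) and CCT7 (-0.49, adjusted p = 0.0377) then passed as lower, and CCT5 lost its call. In all, it called 24 members for day 4 against day 0, 6 higher and 18 lower, against 42.1% of all genes (3544 higher and 3778 lower).

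Day by day, few single steps passed, and consecutive comparisons share the libraries of a day. From day 0 to day 1, 0 members rose and 1 fell, DNAJB6 (2.7% called, against 10.4% of all genes, of which 5.49% higher and 4.88% lower). From day 1 to day 2, 0 rose and 2 fell, HSPA1B and DNAJC7 (5.41% called, against 8.27% of all genes, of which 4.93% higher and 3.34% lower). From day 2 to day 3 edgeR called 0 members, against 0.948% of all genes (0.661% higher and 0.287% lower), while 16 members had an unadjusted p under 0.05, as had 2471 genes (14.2%). That member count was 9 without day 2 replicate 1 (against 8.49% of all genes) and 9 without day 3 replicate 1 (against 10.8%). It was 8 without replicate 1 of days 3 and 4 (against 12.2%). DESeq2 called 4 members (HSPH1, HSP90AA1 and DNAJC7 lower, HSPB8 higher) and 5.73% of all genes. This step held the broadest shift among the members: 30 of 37 estimates were negative, with a median of -0.55 against 0.01 for all genes, and the libraries did not overlap for 12 members lower (32.4%, against 8.75% of all genes) and 2 higher (5.41%, against 9.1%). The lowest adjusted p-values were those of HSPH1 (-1.71, SE 0.45, adjusted p = 0.0801), HSP90AA1 (-1.28, SE 0.33, adjusted p = 0.0778) and DNAJC7 (-0.93, SE 0.26, adjusted p = 0.0932), and among positive estimates HSPB8 had the largest (1.62, SE 0.53, adjusted p = 0.157).

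From day 3 to day 4 edgeR called 0 of the 17401 genes (0%) and thus 0 members, with 1074 genes and 4 members at an unadjusted p under 0.05, and DESeq2 called 68 genes and 0 members. The 4 members were 3 HSP70 genes with higher values on day 4 and HSPA9 with lower. HSPA2 was at 2.04, 3.12 and 3.98 CPM on day 3 and 6.71, 4.43 and 11.6 on day 4 (1.31, SE 0.39, adjusted p = 0.597). It was the 1 member higher without overlap (2.7%, against 4.95% of all genes), and 3 were lower without overlap (8.11%, against 4.32%), namely HSP90AB1, CCT8 and DNAJB11. HSPA1A (2.83-fold, adjusted p = 0.728) and HSPA1B (2.54-fold, adjusted p = 0.655) overlapped between the days. HSPA9 was measured at 540, 259 and 488 CPM on day 3 and 321, 240 and 275 on day 4 (-0.62, SE 0.29, adjusted p = 0.796).

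Other genes of these pathways were read from lists by compartment. Of 35 tested cytosolic cochaperones outside the members, 2 rose (5.71%, against 18% of all genes) and 13 fell (37.1%, against 16.2%) from day 0 to day 4, with a median of -0.65 against -0.02 for all genes. The largest falls among those that passed were those of PFDN4, a prefoldin subunit that hands actin and tubulin to TRiC, from 78 ± 73.1 to 17.9 ± 2.09 CPM (log2 difference -2.12, SE 0.49, adjusted p = 0.0039), and of the J protein DNAJA4 from 7.44 ± 0.662 to 1.74 ± 0.618 CPM (-2.09, SE 0.37, adjusted p = 0.000645). The J proteins DNAJB2 (1.97, SE 0.59, adjusted p = 0.0178) and DNAJB5 (1.34, SE 0.40, adjusted p = 0.0171) rose. DNAJB5 had already risen from day 1 to day 2 (21.9 ± 7.37 to 65.5 ± 14.3 CPM, adjusted p = 0.0228), when BAG1, an exchange factor of HSP70, fell (42.7 ± 6.25 to 20.9 ± 4.26 CPM, adjusted p = 0.0263).

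Of 12 mitochondrial folding and protease genes outside the members, 2 rose (16.7%, near the 18% of all genes) and 3 fell (25%, against 16.2%), with a median of -0.62. DNAJC15, a J protein of the mitochondrial import motor, rose from 0.713 ± 0.297 CPM on day 0 to 11.1 ± 3.47 on day 1, 68.4 ± 11.5 on day 2 and 105 ± 42 on day 4 (log2 difference 7.19, SE 0.57, adjusted p = 5.59e-07). It thus moved against HSPA9, the HSP70 that the import motor serves. DNAJC19, a related J protein of the inner membrane, fell from 23 ± 14.8 to 6.64 ± 3.01 CPM (-1.79, SE 0.46, adjusted p = 0.00776), and DNAJA3, the J protein of the matrix, from 74.6 ± 7.22 to 39 ± 0.772 CPM (-0.94, SE 0.24, adjusted p = 0.00847). The protease gene HTRA2 rose (0.87, SE 0.26, adjusted p = 0.017).

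Of 36 tested genes of ER folding and the unfolded protein response outside the members, 9 rose (25%, against 18% of all genes) and 1 fell (2.78%, against 16.2%), with a median of 0.44. SIL1, an exchange factor of HSPA5, rose from 2.5 ± 1.04 to 16.7 ± 2.87 CPM (log2 difference 2.74, SE 0.40, adjusted p = 0.000121). SEL1L, a part of the machinery that removes misfolded proteins from the ER, rose from 77.5 ± 25.9 to 240 ± 25.5 CPM (1.63, SE 0.35, adjusted p = 0.00233), most of it from day 1 to day 2 (71.6 ± 18.3 to 287 ± 101 CPM, adjusted p = 0.00216). DERL3, of the same pathway, fell from 7.43 ± 0.983 to 1.71 ± 0.934 CPM (-2.12, SE 0.50, adjusted p = 0.00444). DDIT3, a transcription factor of prolonged ER stress, rose from day 2 to day 3 (6.23 ± 3.49 to 50 ± 23.3 CPM, adjusted p = 0.0213). For day 4 against day 0 it did not pass (1.35, adjusted p = 0.0562).

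**Figure D5:**
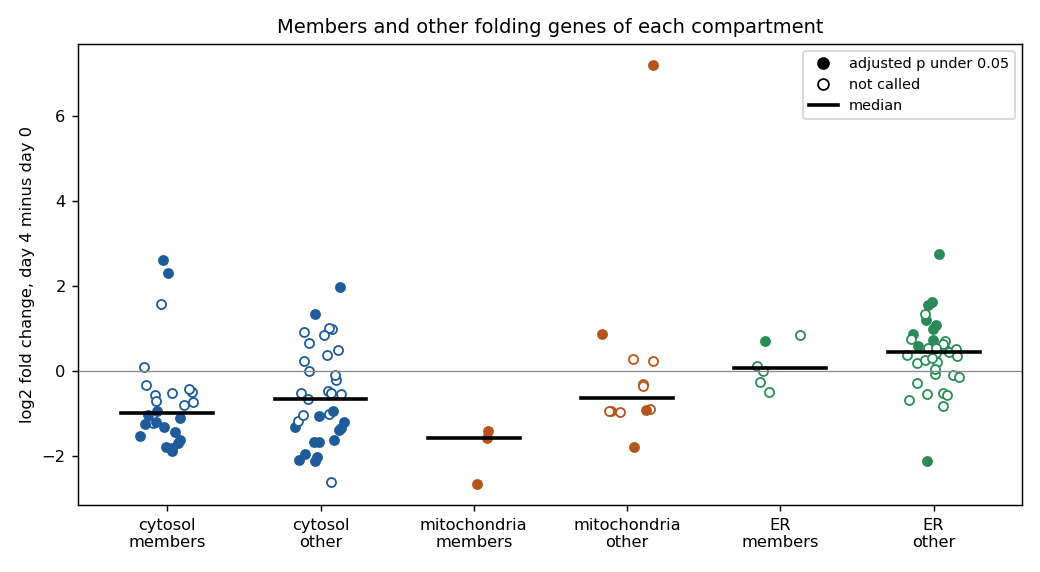
Log2 fold change from day 0 to day 4 (y axis) of the members and of the other listed folding genes of the cytosol, mitochondria and ER (x axis), each point a gene, filled where the adjusted p is under 0.05, with a bar at the median. The medians are -0.98 and -0.65 in the cytosol, -1.58 and -0.62 in mitochondria and 0.06 and 0.44 in the ER, and the mitochondrial point at 7.19 is DNAJC15.

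Several members have processed pseudogenes (HSPA8, HSP90AA1, HSP90AB1, HSPD1, HSPE1 and TRiC genes among them), so reads could be split between a gene and its copies. How the counting was done, with which annotation and strand setting, is not given in the sources used here.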

How the data were processed

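The data were gene counts of 15 bulk RNA-seq libraries, 3 per day. Per the labels' protocols, polyA RNA was selected and directional libraries were made, and the submitters' processing notes name TopHat2 2.0.14 and hg19. The authors deposited a table of counts, whole numbers per gene symbol with no normalization. Which program and annotation made the counts is not given in the sources used here. Of 23398 entries, 52 repeated a symbol (44 identical repeats were dropped and 8 were summed), which left 23346 symbols. No count was odd, as if each mate of a pair had been counted. Total counts per library ran from 54723184 to 145857940.

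Columns were matched to samples by title, which gives replicate number and day. All 15 libraries entered 1 fit with edgeR 4.0.16 (limma 3.58.1, R 4.3.3): TMM scaling, filterByExpr by day (17401 genes kept), a mean per day, quasi-likelihood F-tests of consecutive days, of day 4 against day 0 and of all days jointly, and Benjamini-Hochberg adjustment over all genes tested, called under 0.05. The biological coefficient of variation was 45.6%. The SE was taken as the size of the log2 fold change over the root of its F value. Tables were made with Python 3.11.15 and pandas 2.3.3. Transcript lengths and GC contents (88% of tested genes) came from GENCODE on GRCh38, not from the authors' annotation, and promoters from RefSeq.

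Tested on simulated data for day 4 against day 0 with 100 genes changed per fold size, edgeR recovered 0% of 2-fold and 38% of 4-fold changes among 17119 genes, with 0 unchanged genes called. DESeq2 1.42.0 recovered 11% and 71% among 17401 genes, with 28 unchanged genes called. The simulation changed far fewer genes than the 5948 called for this comparison in the data. Its cut-off on the unadjusted p was thus stricter, and its rates do not carry over to the data. Changes of about 2-fold could still be missed.

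The members, the lists of other folding genes and the markers were chosen with earlier results of these data known. All members could be named, with full statistics for called ones, and at most 2 called genes per direction of each other list and comparison. Alternatives were DESeq2's size factors, library totals alone, no filter, a filter at CPM over 1 in 3 libraries, the replicate number as a block, DESeq2, only the days compared, counts halved, each library left out, and replicate 1 of days 3 and 4 left out. Removal of GC and length trends, alone or with the block, was chosen after seeing the data.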

Additional observations from a re-analysis of the deposited data

How the results depend on the processing

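Of the 19 members called between day 0 and day 4, 15 kept their call in all 26 alternatives, 4 lost it in some (HSP90AA1, TCP1, CCT5, HSP90B1) and 0 changed direction. Of the 18 not called, 10 were called in some. Leaving out each library in turn gave 15 to 20 members called for day 4 against day 0, 21 to 25 in the joint test, 0 to 1 for day 1 against day 0, 0 to 3 for day 2 against day 1, 0 to 3 for day 3 against day 2 and 0 to 0 for day 4 against day 3. Of all genes the same fits called 22.8% to 37.5%, 29.2% to 39.7%, 5.82% to 14.9%, 3.44% to 9.14%, 0.0281% to 1.39% and 0% to 0.00564%, in that order. The medians of the members then ran from -1.11 to -0.86 in the cytosol, -1.63 to -1.43 in mitochondria and -0.01 to 0.21 in the ER.

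For day 1 against day 0, 0 members were called with library totals alone, without a filter, without replicate 1 of days 3 and 4 and with GC and length trends removed. Of all genes 9.69%, 8.42%, 11.6% and 15.4% were called there, in that order. With only the days compared, 2 members were called, against 13.5% of all genes. For day 2 against day 1, 4 of the 37 were called with only the days compared (against 17.6% of all genes). With GC and length trends removed and the replicate block, 8 of the 37 were called (against 19.5% of all genes). For day 3 against day 2, 4 were called with DESeq2 (957 of 16712 genes), 4 with GC and length trends removed (793 of 17401 genes) and 7 with the block added (1318 genes), against 0 members and 165 genes as reported. The cytosolic median was -0.78 with GC and length trends removed. The ER median was 0.33 with those trends removed and -0.03 without replicate 1 of days 3 and 4. The cause of these differences was not tested.

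Uncalled members that changed sign between day 0 and day 4 were HSPA1A (-0.12 with the replicate block, -0.45 with GC and length trends removed, -0.60 with both and -0.52 to 0.65 with each library left out), STIP1 (0.03 without replicate 1 of days 3 and 4, and -0.66 to 0.24 with each library left out), DNAJB4 (0.06 and 0.11 with GC and length trends removed, without and with the block) and HSPA13 (-0.01 with the filter of CPM over 1, -0.31 without replicate 1 of days 3 and 4, and -0.29 to 0.36 with each library left out).

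The replicate number as a block gave 24 members called for day 4 against day 0 and 28 jointly (over all genes, 7483 in place of 5948 and 8580 in place of 6498). For day 3 against day 2 it gave 4, namely HSPH1, HSP90AA1, DNAJC7 and TCP1, all lower (590 genes in place of 165). It gave 3 for day 2 against day 1 (against 14.2% of all genes) and 1 for day 1 against day 0 (against 16.7%). The numbers were not taken to pair the samples: deviations from the daily means correlated at -0.37 to 0.761 over 30 same-number pairs, with 22 above 0.1, and 13 of 15 libraries correlated best with their own number, a hint from the data only.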
